A study of Sus scrofa with 2 samples.

Results

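Acid ceramidase (ASAH1) and 9 other genes of ceramide and sphingosine-1-phosphate were examined in the day 18 endometrium of pregnant Yorkshire pigs (YK18). ASAH1 was chosen on its very high RPKM in these same 2 libraries, so its level is given here as a description and not as a test. The list of 10 genes holds the enzymes ASAH1, SMPD1, SPHK1, SGPL1, SGPP1, CERS2 and UGCG and the receptors S1PR1, S1PR2 and S1PR3. Each gene was found by its RefSeq accession, and the rows of a gene were summed. Of the 10 genes, 8 had a row in the deposited table, which paired with 11071 genes in all, and 6 were above 0 RPKM. These 6 all had a mean of at least 1 RPKM, as had 58.5% of all matched genes. Of all matched genes, 26.6% were at 0 in both libraries. SMPD1 and S1PR1 were paired with no row and are not analysed here. SGPL1 and S1PR2 were listed at 0 in both libraries.

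The tissue came from 2 Yorkshire pigs of 1 commercial herd that had been artificially inseminated, and their uterine horns were flushed with saline before the endometrium was taken. Each pig gave 1 library (replicate 1 and replicate 2), and both pigs belong to the same group, so there was 1 condition and no contrast. The libraries held 7466979 and 7023108 reads. Whole endometrium was sequenced, so fewer cells of a type and less RNA per cell cannot be told apart. Of the markers of endometrial cells, 5 of 6 epithelial genes and 5 of 5 listed stromal genes had reads in at least 1 library. Among all matched genes, 26.6% were at 0 in both libraries. The stromal marker COL1A2 had only 1 and 0 reads, and COL1A1 and PDGFRA had no row. The epithelial marker KRT8 and the macrophage marker AIF1 were listed at 0. Summed epithelial markers stood at 11970 and 10845 RPKM, stromal markers at 69452 and 44378 RPKM, endothelial markers at 6437 and 6108 RPKM, and leukocyte markers at 614 and 992 RPKM. COL3A1 alone made up 67098 and 42857 RPKM of the stromal sum, LUM was also higher in replicate 1, and DCN and VIM were higher in replicate 2. Within the epithelial sum, CDH1 and KRT18 were higher in replicate 1, KRT19 and CLDN4 in replicate 2, and EPCAM was nearly equal. Within the endothelial sum, KDR and PECAM1 were higher in replicate 1, and VWF and CLDN5 in replicate 2. PTPRC alone made up 526 and 846 RPKM of the leukocyte sum. CD3E and CD14 were also higher in replicate 2, and LCP1 was higher in replicate 1, on 6 and 1 reads. The libraries stood apart in the sum of 6 markers of skeletal muscle, at 421.6 RPKM in replicate 1 against 9.55 RPKM in replicate 2. ACTA1, 1 of the 6, was at 0.54 and 0 RPKM, on 1 and 0 reads.

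Ceramide is the centre of sphingolipid metabolism. It is built de novo from serine and palmitoyl-CoA, or released from sphingomyelin and glycosphingolipids, and it can be turned into glucosylceramide by UGCG or cleaved to sphingosine by a ceramidase. Acid ceramidase does this in the lysosome. Sphingosine is then phosphorylated to sphingosine-1-phosphate (S1P), a lipid that acts through G protein-coupled receptors on vessels, immune cells and smooth muscle. S1P is removed again by phosphatases or by a lyase. In rodents the sphingosine kinases are known to be needed for normal growth of the decidua. In the pig the placenta does not invade, and at this stage the conceptus is attaching to the uterine epithelium.

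ASAH1, which cleaves ceramide to sphingosine and a fatty acid, was by far the most abundant gene of the list. It is listed as 1 transcript, XM_003134187.4, and reached 41781 RPKM in replicate 1 against 30062 RPKM in replicate 2, a mean of 35921 ± 8287 RPKM (SD, n = 2 pigs). Both pigs were thus high, and replicate 1 was the higher by 1.39-fold. ASAH1 ranked 2 among the matched genes in replicate 1 and 4 in replicate 2. It held 0.976% of all summed RPKM in replicate 1 and 0.704% in replicate 2. Behind these values were 52100 and 35258 reads, which is 0.698% and 0.502% of the libraries. Reads are the smallest that fit the RPKM. As such reads per 1000000 reads of the library (RPM), ASAH1 was at 6977 RPM in replicate 1, with a 95% exact binomial interval of 6918 to 7037. Replicate 2 was at 5020 RPM, with an interval of 4968 to 5073. The intervals do not overlap. PCR copies are not separate molecules, so these intervals hold counting error alone, and the spread between the pigs was far wider.

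The matched genes nearest to ASAH1 in mean level were COL3A1 and ISG12(A) above it and MEP1B, TFRC and SAT1 below it. COL3A1, a fibrillar collagen, stood at 67098 and 42857 RPKM. ISG12(A), an interferon-stimulated gene, stood at 37755 and 45807 RPKM, and was below ASAH1 in replicate 1 and above it in replicate 2. MEP1B, the beta subunit of the protease meprin, stood at 20632 and 32706 RPKM, and was also above ASAH1 in replicate 2. TFRC, the transferrin receptor, stood at 21549 and 21851 RPKM, below ASAH1 in both pigs. SAT1, which acetylates spermidine and spermine, stood at 17008 and 19672 RPKM. Of these 5 neighbours, only TFRC and SAT1 were lower than ASAH1 in RPKM in both libraries, and COL3A1 was higher in both. This order depends on the scale. In RPM, on the smallest reads that fit, COL3A1 at 6240 and 3986 was below ASAH1 in both pigs. SAT1 was far lower on that scale, at 323 and 374 RPM. ISG12(A), MEP1B and TFRC stood on the same side of ASAH1 on both scales. With 2 libraries of 1 condition, likeness to ASAH1 could be given only as a nearby level.

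UGCG, which makes glucosylceramide from ceramide, was the second of the list. It stood at 293.2 and 328.0 RPKM in the pigs, a mean of 310.6 ± 24.6 RPKM (SD, n = 2 pigs), from 996 and 1048 reads. ASAH1 exceeded UGCG 143-fold in RPKM in replicate 1 and 91.7-fold in replicate 2. On the smallest reads that fit, the ratio in RPM was 52.3-fold and 33.6-fold. The RPKM were divided by different lengths for these genes. The smallest length at which both libraries gave whole reads was 167 nt for ASAH1 and 455 nt for UGCG. The length in use may be a whole multiple of it, and the reads then rise by the same factor, so reads and RPM of a gene are minimum values, and a ratio of RPM between genes can move with them. A ratio of RPM between the pigs does not move for a gene with 1 transcript above 0. It can move where several are summed, as for SPHK1 and CERS2. Summed over the table, the smallest reads made up 90.2% and 90.3% of the library totals. Over the rows of matched genes above 0 the median of this length was 242 nt, and 29.7% had a shorter one than ASAH1.

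SGPP1, a phosphatase that turns S1P back to sphingosine, was at 37.2 and 36.0 RPKM, a mean of 36.6 ± 0.872 RPKM (SD, n = 2 pigs), from 298 and 271 reads. The pigs were nearly equal for SGPP1, with a log2 ratio of replicate 2 to replicate 1 of -0.05 on the log2(RPKM + 1) scale. In RPM its intervals overlapped, at 39.9 (35.5 to 44.7) in replicate 1 and 38.6 (34.1 to 43.5) in replicate 2. SPHK1, the kinase that makes S1P, was low. Its 3 listed transcripts summed to 6.51 and 1.80 RPKM, the lower value being that of replicate 2, on 19 and 5 reads. Almost all of them lay in XM_005656915.1, with 18 and 5 reads, while XM_005656918.1 had 1 and 0 reads and XM_005656916.1 was listed at 0 in both libraries. SPHK1 was the only member that differed at least 2-fold between the pigs, with a log2 ratio of -1.42. In RPM SPHK1 was 3.57-fold higher in replicate 1 (95% exact interval of the ratio 1.29 to 12.2, counting error only). SGPL1, the lyase that cleaves S1P irreversibly, had 7 listed transcripts, all at 0 in both libraries.

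CERS2, a ceramide synthase that favours very long acyl chains, was low, at 4.04 RPKM in the first replicate and 2.20 RPKM in the other. These values came from only 6 and 3 reads, and 2 of its 4 listed transcripts were at 0 in both libraries. XM_001929667.5 had 6 and 2 reads, and XM_005663489.1 had 0 and 1.

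Among the receptors, S1PR3 was at 7.28 and 6.22 RPKM, a mean of 6.75 ± 0.748 RPKM (SD, n = 2 pigs), from 102 and 82 reads. The pigs were close, and the intervals in RPM overlapped, at 13.7 (11.1 to 16.6) and 11.7 (9.29 to 14.5). Both transcripts of S1PR2, NM_001243854.1 and NM_001243855.1, were listed at 0. Of the receptors outside the list, S1PR5, known from natural killer cells and the nervous system, had 0 reads in replicate 1 and 1 read in replicate 2, and S1PR4 was paired with no row. S1PR3 was therefore the only listed S1P receptor with more than 1 read in a library. A gene listed at 0 is not called absent, because KRT8, a keratin of simple epithelia, and PSAP, a lysosomal gene of nearly all cells, are also listed at 0 in this table.

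**Figure D1:**
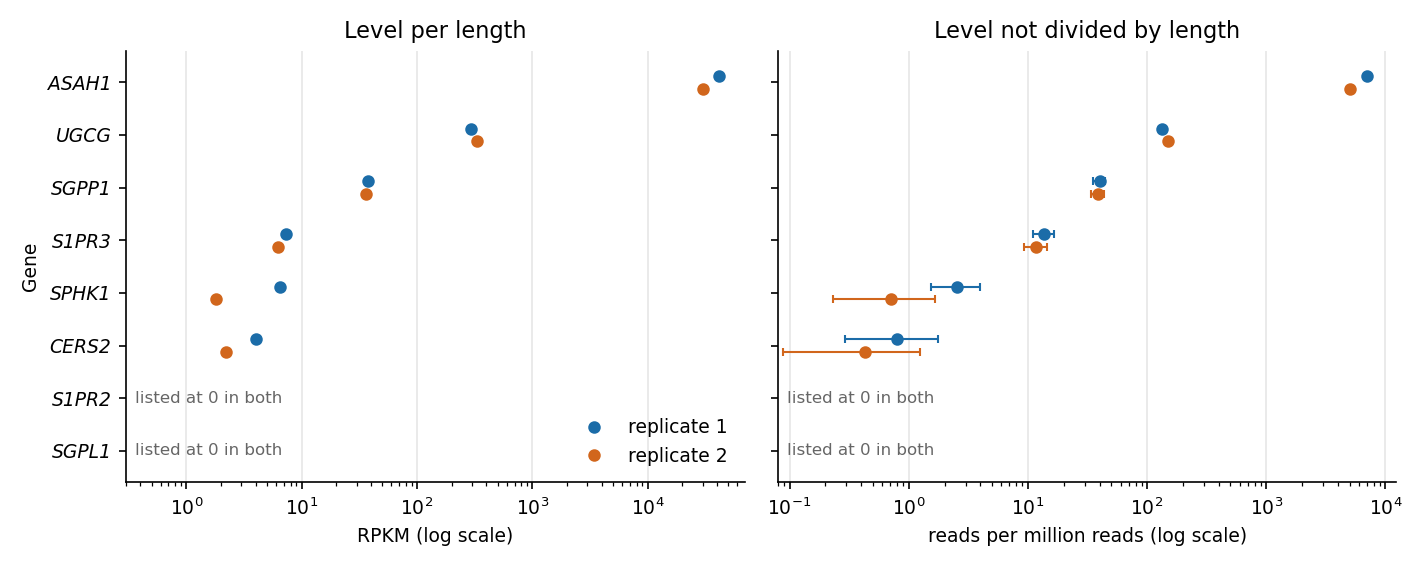
The 8 listed genes in each of the 2 YK18 libraries, as RPKM on the left and as RPM on the right, both on log axes; points are single libraries and bars on the right are, for the smallest reads that fit, 95% exact binomial intervals that cover counting error only. ASAH1 lies between 30062 and 41781 RPKM, far to the right of UGCG at 293.2 and 328.0 RPKM, and SGPL1 and S1PR2 are listed at 0.

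By mean RPKM the order was ASAH1, UGCG, SGPP1, S1PR3, SPHK1 and CERS2. The first 4 genes were separated in both pigs, in that the lower library of each was above the higher library of the next. S1PR3 was above SPHK1 within each pig, 1.12-fold in replicate 1 and 3.45-fold in replicate 2. The ranges of these genes overlapped, since S1PR3 at 6.22 RPKM in replicate 2 was below SPHK1 at 6.51 RPKM in replicate 1. SPHK1 and CERS2 could not be ordered, because SPHK1 was the higher in replicate 1 and CERS2 in replicate 2. In RPM, on the smallest reads that fit, the order was the same. The ranges of S1PR3 and SPHK1 then did not overlap, with S1PR3 the higher 5.37-fold in replicate 1 and 16.4-fold in replicate 2. SPHK1 was above CERS2 in each pig on this scale, but the ranges of the 2 genes overlapped. Against the median of the 7 other listed members, ASAH1 was higher by 12.4 on the log2(RPKM + 1) scale in replicate 1 and by 13.2 in replicate 2. ASAH1 made up 99.2% and 98.8% of the summed RPKM of the list, and 97.3% and 96.2% of its smallest fitting reads.

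The upper and lower genes of the list differed in whether the table lists 1 transcript for a gene or several. The 4 highest genes, ASAH1, UGCG, SGPP1 and S1PR3, have 1 listed transcript each. The 4 lowest, SPHK1, CERS2, SGPL1 and S1PR2, have between 2 and 7. Within these 4 the order did not follow the number, since S1PR2 with 2 was at 0 and CERS2 with 4 was not. Across the table, zeros were also more frequent in genes with several transcripts. Of 8238 matched genes with 1 listed transcript, 21.1% were at 0 in both libraries. This share was 40.4% of genes with 2 transcripts, 44.0% with 3, 48.5% with 4 to 6 and 54.7% of the 64 genes with 7 or more. A low or zero value of SGPL1, S1PR2, SPHK1 or CERS2 and the number of its transcripts cannot be told apart here. How reads shared between transcripts of a gene were counted is not given in the sources used here.

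**Figure D2:**
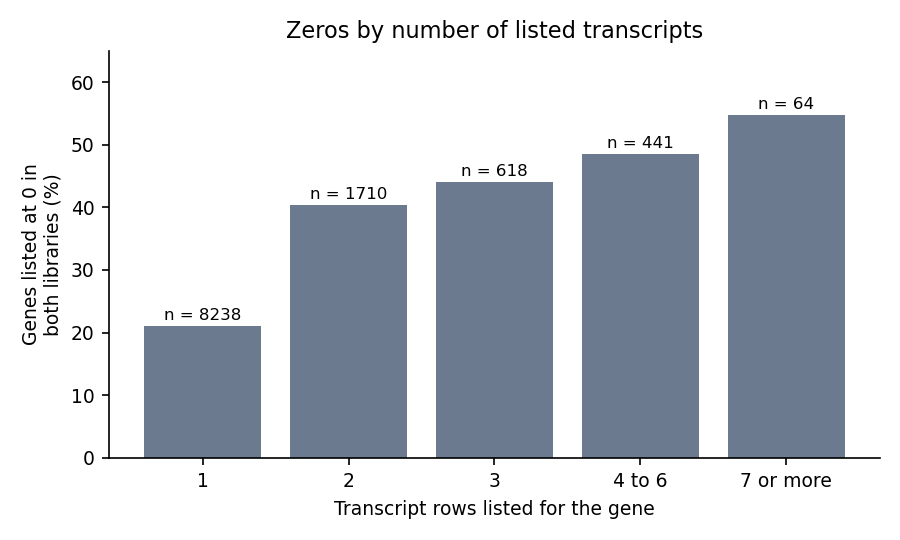
Share of matched genes listed at 0 in both YK18 libraries, in percent, by the number of transcript rows the table lists for the gene; n is the number of genes in each bar. The bars rise from 21.1% for genes with 1 row to 54.7% for genes with 7 or more.

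A wider list of 69 genes of sphingolipid metabolism and signaling, grouped by role, was read in the same way. Of these, 48 had a row and 34 reached 1 RPKM on average, which is 70.8%, against 58.5% of all matched genes. Among genes with 1 listed transcript the share was 25 of 32, or 78.1%, against 63.9% of all such genes. All 15 genes of the wider list at 100 RPKM or more had 1 listed transcript, as had 32 of the 48 and 8238 of all 11071 matched genes. The 15 genes were 31.3% of the 48, against 23.3% of all matched genes at this level. A value of 0 in both libraries was listed for 11 of the 48, against 26.6% of all matched genes. With 1 transcript it was 4 of 32, or 12.5%, against 21.1% of all such genes. With several it was 7 of 16, or 43.8%, close to the 42.7% of all such genes.

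Beside ASAH1, several genes above 100 RPKM belonged to the lysosomal breakdown of glycosphingolipids. HEXA, the alpha subunit of beta-hexosaminidase, was at 2463 and 2834 RPKM. GM2A, the activator that presents ganglioside GM2 to this enzyme, was at 642 and 503 RPKM. GLA, alpha-galactosidase A, was at 334.1 and 354.4 RPKM. These 3 genes were high in both pigs and differed by less than 2-fold. NEU1, a sialidase, was at 202.3 and 207.2 RPKM, and ARSA, which removes sulfate from sulfatide, at 161.1 and 172.4 RPKM. GALC, which cleaves galactosylceramide, was low at 1.71 and 2.72 RPKM, from 2 and 3 reads. Over all glycosphingolipid genes, those of synthesis such as UGCG included, 11 of the 13 listed had a mean of at least 1 RPKM. These 11 all have 1 listed transcript. The share was 58.5% of all matched genes and 63.9% of those with 1 listed transcript. PSAP, whose protein is cut into the saposins that help acid ceramidase and other lysosomal enzymes reach their lipids, has 4 listed transcripts, all at 0 in both libraries, and GBA2 was also listed at 0. HEXA came second to ASAH1, which exceeded it 17.0-fold in RPKM in replicate 1 and 10.6-fold in replicate 2. ASAH1 also exceeded the sum of the 47 other genes, 5.38-fold in RPKM in replicate 1 and 3.40-fold in replicate 2, and in smallest fitting reads 4.50-fold and 2.68-fold.

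Of the other ceramidases only ASAH2 and ACER1 had reads. ASAH2, the neutral ceramidase, was at 7.09 and 4.19 RPKM, from 9 and 5 reads. ACER1, an alkaline ceramidase, had 1 and 0 reads, and ACER2 was listed at 0. ACER3 and the ceramide kinase CERK were paired with no row. ASAH1 was thus the one ceramidase with more than 9 reads in a library among the 4 listed.

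For de novo synthesis of ceramide, 8 of 13 listed genes had a mean of at least 1 RPKM, near the share of 58.5% of all matched genes. SPTLC1, a subunit of serine palmitoyltransferase, the first enzyme of the pathway, was the highest at 1001 and 1132 RPKM. SPTSSA, a small subunit of the same enzyme, was at 135.5 and 152.2 RPKM, and SPTLC3 at 31.6 and 52.7 RPKM. The later steps were lower. KDSR, the ketoreductase, was at 2.83 and 5.41 RPKM, from only 5 and 9 reads. CERS4 was at 7.44 and 22.0 RPKM, from 9 and 25 reads. DEGS1, the dihydroceramide desaturase, was at 5.33 and 2.09 RPKM, from 19 and 7 reads. CERS1, CERS3, ORMDL3 and SPTSSB were listed at 0. Of the genes in these steps, SPTLC1, SPTSSA, SPTLC3 and KDSR have 1 listed transcript, and CERS4 and DEGS1 have 2.

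For sphingomyelin, 5 of 7 listed genes had a mean of at least 1 RPKM, where the share of all matched genes was 58.5%. SGMS1, a sphingomyelin synthase, was at 245.0 and 195.8 RPKM. SMPD2, a neutral sphingomyelinase, was at 189.3 and 211.1 RPKM, where the smallest fit was 41 and 43 reads at 29 nt. SAMD8 and SMPD3 were listed at 0. Of the genes that make or break down S1P, ALDH3A2 was the highest. It oxidizes the fatty aldehyde that the lyase releases, and stood at 165.8 and 241.0 RPKM. The lipid phosphate phosphatases PLPP1, PLPP2 and PLPP3, which act on S1P and other lipids at the cell surface, had means between 10.6 and 23.8 RPKM. Of the transporters and carriers only APOM, the apolipoprotein that carries S1P in plasma, had a row, at 7.62 and 22.0 RPKM.

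**Figure D3:**
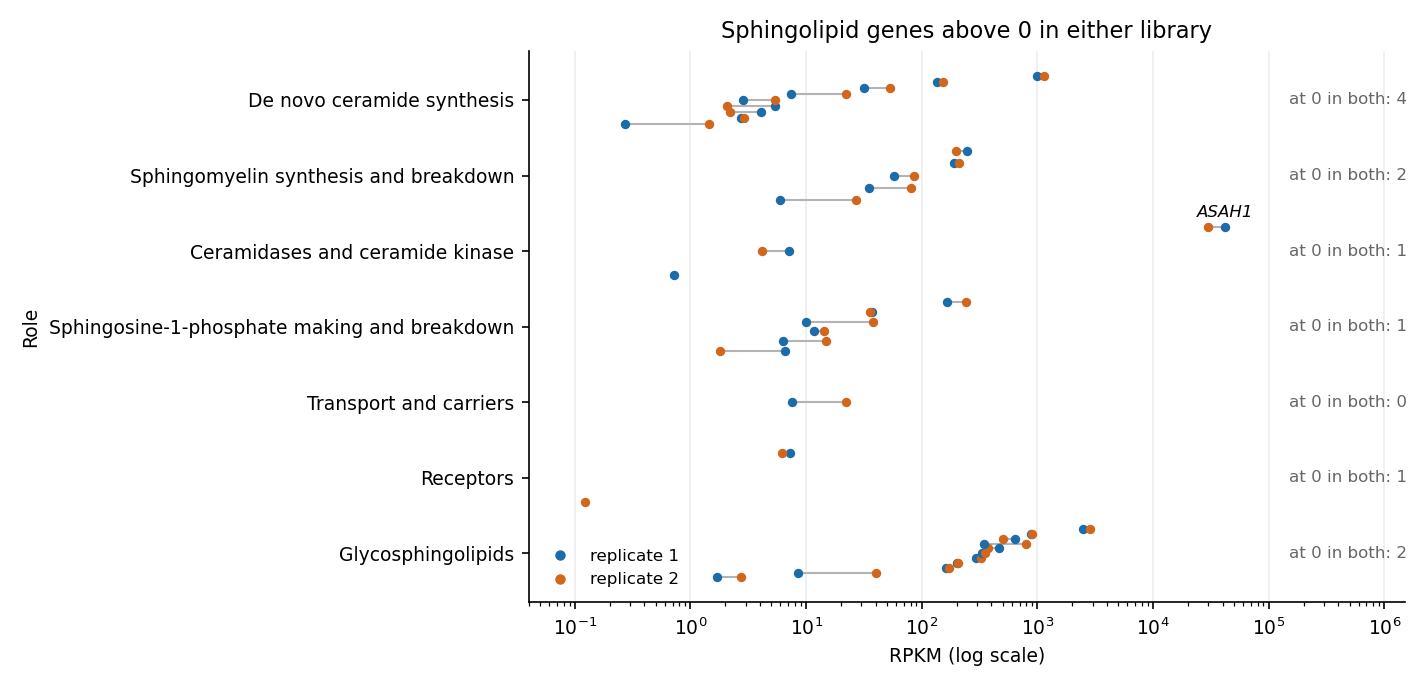
RPKM on a log axis of the sphingolipid genes above 0, by role, with 1 point for each library of a gene and a line joining the 2 libraries; the number of genes listed at 0 in both libraries stands at the right. ASAH1 at 30062 and 41781 RPKM lies apart from all others, and the next are HEXA at 2463 and 2834 RPKM and SPTLC1 at 1001 and 1132 RPKM.

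Between the pigs, 10 of the 34 genes with a mean of at least 1 RPKM differed by 2-fold or more on the log2(RPKM + 1) scale. In 8 of them replicate 2 was the higher, which is 23.5%, against 7.49% of all 6476 matched genes at this level. In 2 of them, SPHK1 and DEGS1, replicate 1 was the higher, which is 5.88%, against 3.17%. The 2-fold differences lay mostly among low genes. Of the 19 genes under 100 RPKM, 7 were higher in replicate 2 and 2 in replicate 1, against 11.1% and 4.77% of all matched genes between 1 and 100 RPKM. Among the 15 genes at 100 RPKM or more only B4GALT5 passed 2-fold, and the others had a log2 ratio of at most 0.54 in size. This pattern by level is not particular to the sphingolipid genes. Over all matched genes the shares were also larger between 1 and 100 RPKM, at 11.1% and 4.77%, than at 1 RPKM or more, at 7.49% and 3.17%. Of the 485 matched genes at least 2-fold higher in replicate 2, 432 lay between 1 and 100 RPKM. For replicate 1 this was 186 of 205. Of the 6476 matched genes, 2575 were at 100 RPKM or more.

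B4GALT5 and B4GALT6, the galactosyltransferases that extend glucosylceramide to lactosylceramide, were both higher in replicate 2. B4GALT5 was at 344.4 and 790.9 RPKM, from 1242 and 2683 reads, a 2.30-fold difference in RPM (95% exact interval 2.15 to 2.46). B4GALT6 was at 8.47 and 40.5 RPKM, from 16 and 72 reads, 4.78-fold (2.76 to 8.81). UGCG, which acts 1 step before them, differed by 1.12-fold.

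PLPP2 was at 9.94 and 37.7 RPKM, with 17 and 60 reads, and SMPD4, a neutral sphingomyelinase, at 5.89 and 26.8 RPKM, with 11 and 47 reads. Their differences were 3.75-fold (2.16 to 6.86) and 4.54-fold (2.32 to 9.71) in RPM. SMPDL3B, a relative of acid sphingomyelinase at the cell surface, was at 34.8 and 80.4 RPKM. APOM, CERS4 and PLPP1 also passed 2-fold toward replicate 2, on 27 reads or fewer in either library. DEGS1 had 19 reads in replicate 1 and 7 in replicate 2. The 10 genes were chosen by their 2-fold difference in the same reads, so their intervals are a description of its precision and no support for it. These intervals compare 2 libraries and cover counting error, not the variation between pigs. The part of the leukocyte and skeletal muscle markers, or of COL3A1 and LUM among the stromal ones, in these differences was not tested.

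**Figure D4:**
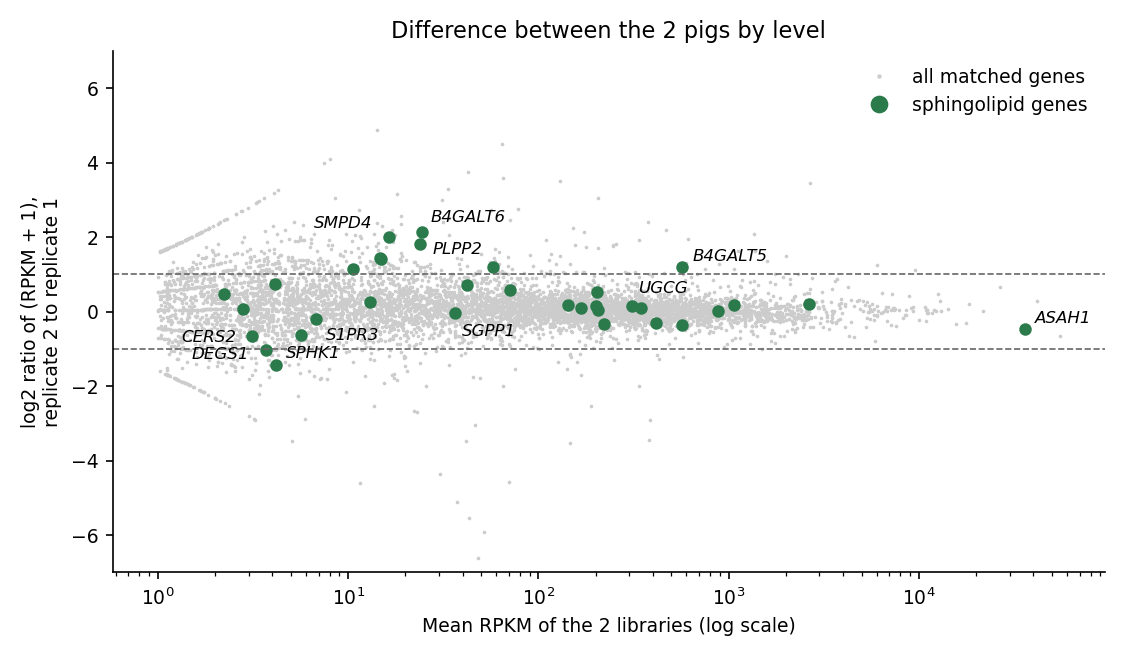
The log2 ratio of (RPKM + 1) of replicate 2 to replicate 1 against the mean RPKM of the 2 libraries on a log axis, with grey points for all 6476 matched genes of at least 1 RPKM, green points for the 34 sphingolipid genes, and dashed lines at a 2-fold difference. ASAH1 lies at the far right with a ratio of -0.47, and most of the 10 genes beyond the lines lie under 100 RPKM.

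ASAH1 had a log2 ratio of -0.47, UGCG of 0.16, S1PR3 of -0.20 and CERS2 of -0.65. A ratio as large as that of ASAH1 in either direction was found in 30.9% of all matched genes at 1 RPKM or more, and one as large as that of SPHK1 in 4.88%. Of the 5 genes nearest to ASAH1 in level, COL3A1 had -0.65, MEP1B 0.66, ISG12(A) 0.28, SAT1 0.21 and TFRC 0.02.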

How the data were processed

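Total RNA of the endometrium of 2 pregnant Yorkshire pigs (day 18) was sequenced, with 1 library per pig. Per the study's methods, expression was counted by HTSeq (0.6.1). The authors deposited RPKM values, 1 row per transcript. Aligner, genome build and filters are not given in the sources used here, so no coordinates are printed. RPKM are not counts, and no count model was fitted.

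The reads behind each value were recovered from the spacing of low values, which gave 7466979 and 7023108 reads per library. Lengths up to 20000 nt were tried in rising order, and the first that brought both libraries within 1e-05 of whole reads was kept, with an allowance for the printed digits. All 25584 transcripts above 0 gave whole reads. The reads and lengths are the smallest that fit, so intervals from them may be too wide. The recovery was tested on simulated data.

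Symbols came from RefSeq (Sscrofa11.1) by accession without version, which matched 16072 transcripts. Ratios are of log2(RPKM + 1), for genes with a mean of at least 1 RPKM. Named genes are all members, the highest gene of each role, genes that differed 2-fold, genes at 0, and up to 3 matched genes on either side of ASAH1 in mean RPKM. GM2A, GLA, NEU1, ARSA, GALC, SPTSSA, SPTLC3, KDSR, SMPD2, PLPP3, ASAH2, ACER1 and S1PR5 were named after their values were seen. Some genes of the lists are counted but not reported here by name. The members and lists were chosen with earlier results of these data known. Alternatives were other pseudocounts, thresholds, scalings, the highest transcript of a gene, reads without length, and each replicate left out. Python 3.11.15, pandas 2.3.3, numpy 2.4.6, scipy 1.17.1 and matplotlib 3.10.9 were used.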

Additional observations from a re-analysis of the deposited data

How the results depend on the processing

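With 2 pigs the spread is known only roughly, and CERS2, SPHK1 and most genes that differed 2-fold rest on few reads. The mean ASAH1 level of 35921 RPKM became 8399 when the RPKM of a library were scaled to add up to 1000000, which lowers every gene. The log2 ratio of ASAH1 went from -0.47 to -0.56 with replicate 2 scaled to a median ratio of 0. The level was 30062 without replicate 1 and 41781 without replicate 2. ASAH1 exceeded the median of the other listed members by 12.8 on the log2(RPKM + 1) scale. This became 12.2 with members of at least 1 RPKM alone, 12.1 with the sum of 1000000, 11.2 in RPM, and 13.1 and 13.2 with pseudocounts of 0.1 and 0.01. Leaving out a replicate gives the value of the other pig, 12.4 or 13.2, and says nothing of stability. The cause of these moves was not tested beyond their construction, in which genes at 0 are dropped, the pseudocount grows against the values, or the length is left out. The counts of members and pathway genes at 1 RPKM or more, and of genes that differed 2-fold, moved by no more than 1.5 times under the alternatives run. The genes that differed 2-fold were 10, of which 8 were higher in replicate 2, under all settings run but 1. With a mean of at least 5 RPKM they were 8 of 28, all higher in replicate 2, and SPHK1 and DEGS1 were then not tested. The share of all matched genes moved more. Those higher in replicate 2 were 7.49% in the main run, and 10.2% and 10.6% with pseudocounts of 0.1 and 0.01. They were 6.41% with replicate 2 scaled to a median ratio of 0, and 5.31% at 5 RPKM. Those higher in replicate 1 lay between 1.66% and 4.54%. Matching the version number as well paired 2 of the 20 transcripts of the list, of 1 gene and not ASAH1, so it gave no level of ASAH1. Reads divided by coding length were not run, since no coding lengths were used here.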
